A study of Canis lupus familiaris with 51 samples.

Results

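A group of 30 genes that followed the gene ENSCAFG00000009613 across canine heart tumours was examined in 51 tumours labelled as hemangiosarcoma. The genes were chosen from their measured levels. Of 16382 genes in the deposited table, 311 reached 5 FPKM or more in at least 1 of 11 heart tumours and had a median under 1 FPKM over 32 spleen tumours. FPKM is the number of sequenced fragments scaled by transcript length and by the total of the library. From these 311, the 30 with the highest Pearson correlation of log2(FPKM + 1) with ENSCAFG00000009613 over the 11 heart tumours were taken, and they are numbered here by that correlation, with ENSCAFG00000009613 as member 1. The files do not pair the identifiers with gene symbols, and 0 of the 16382 matched the table of symbols used here (assembly UU_Cfam_GSD_1.0). Functions, cell type markers and sequences of the members are therefore not given, and the tissue labels could not be checked against marker genes.

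Hemangiosarcoma is a malignant tumour of dogs related to the cells that line blood vessels. It often arises in the spleen and in the right atrium of the heart, and RNA from such a tumour is a mixture of tumour cells, blood and the tissue around the tumour. In bulk RNA of this kind, more cells of a type and more RNA per cell cannot be told apart.

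The labels give the tissue, breed, sex with neuter status, and age at diagnosis of each dog, and no treatment. The 11 heart tumours came from 2 intact and 1 spayed female and from 3 intact and 5 neutered males, aged 5.9 to 11.2 years, 6 of them Golden Retrievers and 1 each a Bernese Mountain Dog, Border Collie Mix, Labrador retriever, Portuguese Water Dog and Saluki. The 32 spleen tumours came from 5 intact and 11 spayed females and from 7 intact and 9 neutered males, aged 3 to 13.6 years, 20 of them Golden Retrievers. The other 12 were 3 German Shepherd Dogs, 2 Keeshonds, 2 Portuguese Water Dogs and 1 each of Boxer, Briard, Bullmastiff, Gordon Setter and Labrador Retriever. The 3 liver tumours came from 1 intact and 2 spayed females aged 9.6 to 10.9 years, a Golden Retriever, a Portuguese Water Dog and a Wolf Mix. Another 5 tumours stood alone under their labels. They were a metastatic tumour (spayed female Golden Retriever, 11.3 years), a metastatic abdominal mass (spayed female Lab/Husky Mix, 9 years), another abdominal mass (intact male Boxer, 8.7 years), a cutaneous tumour (spayed female Bichon Frise, 10.7 years) and a tumour of undetermined histogenic origin (intact female Golden Retriever, 0.7 years). Tumours are numbered within a label in the order of the samples. Relative sequencing depth, solved from the steps of low FPKM values, ran from 0.527 to 2.136 over the 51 libraries around a median library of 1, and from 0.85 to 1.487 in heart. The libraries of hearts 2 and 6, on which most of what follows rests, had 1.049 and 0.904.

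The 30 members were higher in hearts 2 and 6 than in the other hearts. Because the correlation over the heart tumours chose them, this is a description of the choice and not a test. Hearts 2 and 6 were the 2 highest hearts for 30 of the 30 members, for 46 of the 311 genes that met the limits on level, and for 2.06% of the 15133 genes above 0 in any heart. The median FPKM of the members was 12.8 in heart 2 and 8.06 in heart 6, and 0 to 0.283 in the other 9 hearts. At least 1 FPKM was reached by 30 members in heart 2 and by 30 in heart 6, against 0 to 8 members in each of the other 9 hearts. At least 5 FPKM was reached by 28 members in heart 2, by 19 in heart 6 and by 17 in both. The highest value of any member in those 9 hearts was 4.43 FPKM, and 16 of the 30 members stayed under 1 FPKM in every one of them. The members took 1.3% of the summed FPKM in heart 2 and 0.604% in heart 6, against 0.0003% to 0.0034% in the other hearts. Heart 2 came from an intact female Bernese Mountain Dog of 5.9 years and heart 6 from an intact female Golden Retriever of 8.4 years.

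**Figure D1:**
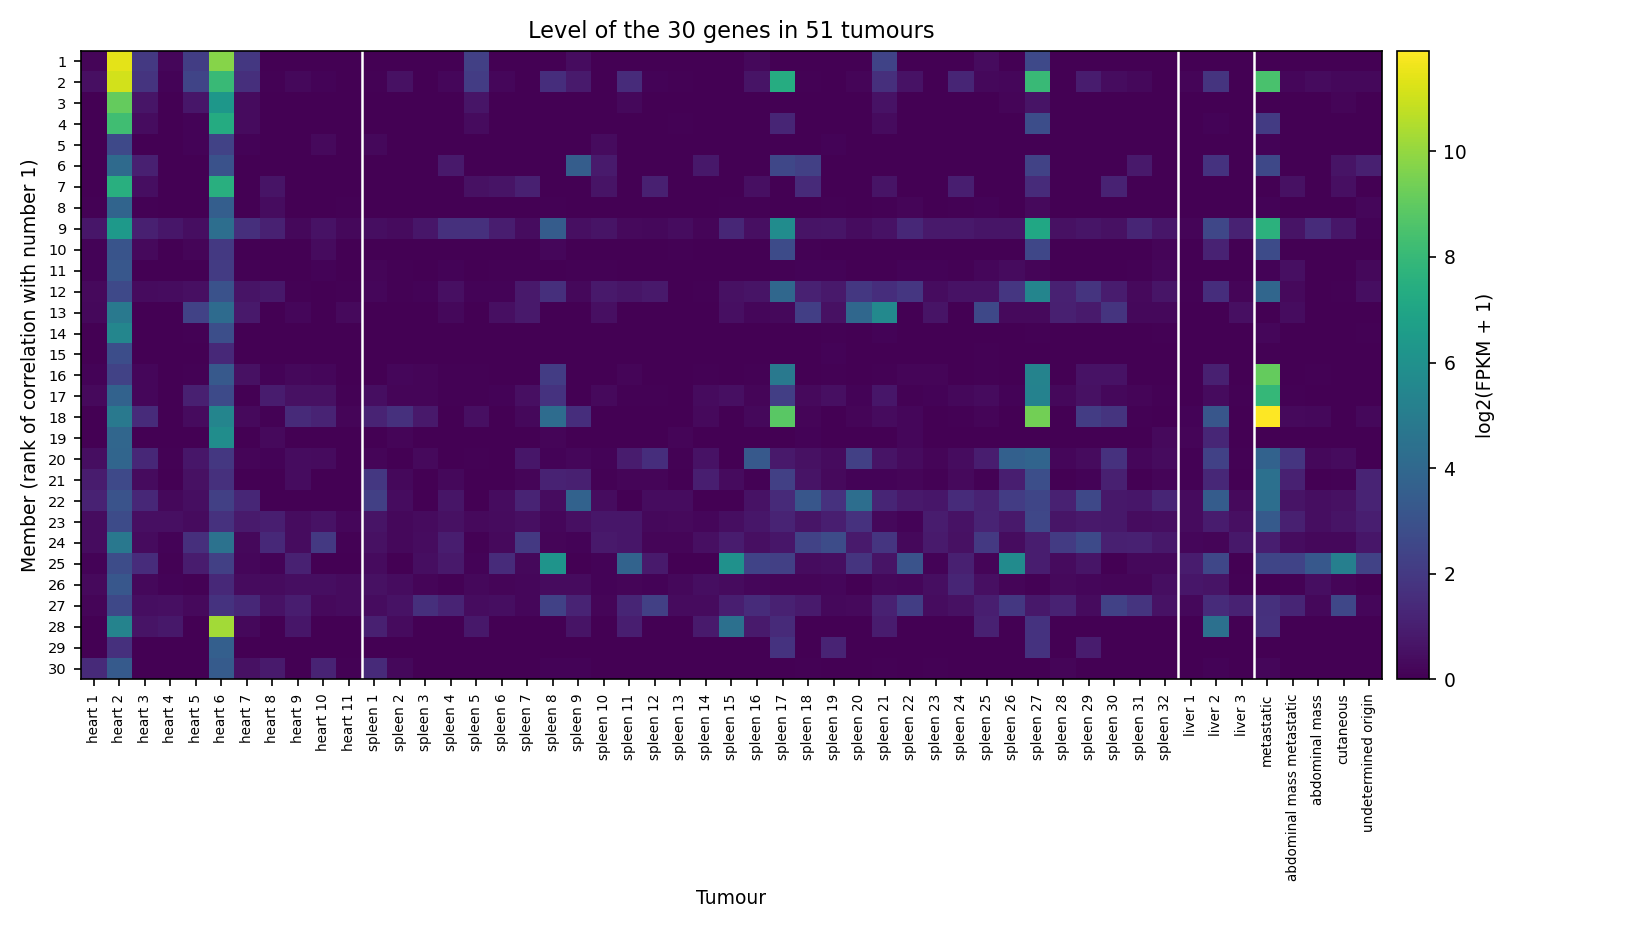
Heat map of log2(FPKM + 1) for the 30 members (rows, numbered by correlation with member 1) in 51 tumours (columns, grouped by tissue label and separated by white lines into heart, spleen, liver and single tumours). Every member is at 1 FPKM or more in hearts 2 and 6, and 17 of the 30 reach 5 FPKM in both. The metastatic tumour and spleens 17 and 27 are bright for only some of the rows, such as members 2, 9 and 18.

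The most abundant members ranked among the most abundant transcripts of hearts 2 and 6. ENSCAFG00000009613 stood at 2747 FPKM in heart 2, the 8th highest gene of that tumour, and at 869.8 FPKM in heart 6, where it ranked 64th. Its values in hearts 3, 5 and 7 were 2.91, 3.55 and 2.81 FPKM. Hearts 1 and 4 had 0.121 and 0.138 FPKM, and hearts 8, 9, 10 and 11 were at 0. The hearts therefore fell into 3 levels for this gene, with 2 far above the rest, 3 near 3 FPKM, and 6 at or close to 0. Whether the values near 3 FPKM are expression in those hearts or carry-over from heart 2 was not tested. Over the 32 spleen tumours its lowest and median values were 0 and its highest was 5.13 FPKM in spleen 27, and all 8 liver and single tumours were at 0.

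Member 2 was close behind, with 2214 FPKM in heart 2 and 266.7 FPKM in heart 6, and between 0 and 4.43 FPKM in the other hearts. Member 3 had 545.1 FPKM in heart 2 and 78.6 in heart 6, while no other heart exceeded 0.63 FPKM. For member 4 the values were 309.5 and 161.4 FPKM, with at most 0.296 FPKM elsewhere in heart. Member 7 was nearly equal in the pair, at 184.2 and 180.9 FPKM, and reached at most 0.522 FPKM in the other hearts. Hearts 2 and 6 did not overlap with the other 9 hearts for any of these genes, which the choice by correlation over the hearts favoured. Of the 15133 genes above 0 in any heart, 2.06% had these 2 as their highest hearts.

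Of the 6 members that reached 100 FPKM in a heart, number 28 alone was higher in heart 6. It stood at 1214 FPKM there, the 36th highest gene of the tumour, against 39.7 FPKM in heart 2 and at most 0.716 FPKM in the other hearts. In all, 17 members reached 10 FPKM in a heart, and the others had their highest heart value between 5 and 10 FPKM.

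Members 5, 6, 8 and 10 were among the closest to member 1 in correlation but were low in level. Their values in heart 2 were 5.15, 16.1, 13.1 and 7.66 FPKM, and in heart 6 they were 4.1, 7.09, 10.6 and 2.93 FPKM. The other hearts had at most 0.23, 1.07, 0.315 and 0.255 FPKM of these genes. Member 9, ENSCAFG00000003591, had the highest heart median outside member 1 at 0.659 FPKM, with 82.5 FPKM in heart 2, 18.5 in heart 6, and 0.179 to 2.07 FPKM in the other hearts. It was above 0 in all 51 tumours.

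The balance between hearts 2 and 6 varied from gene to gene. Heart 2 was the higher of the pair for 23 members and heart 6 for 7. The log2 ratio of heart 2 to heart 6 had a median of 1.02 and an SD of 1.69 over the 30 members, and ran from -4.93 for member 28 to 3.05 for member 2. Over all 10981 genes at 1 FPKM or more in both tumours the median ratio was -0.01 and the SD was 0.72. Since both tumours chose the members, this spread is a description, and there is 1 library behind each value. Among the 10 members closest to member 1, the fold of heart 2 over heart 6 ran from 1.02 for member 7 to 8.3 for member 2.

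**Figure D2:**
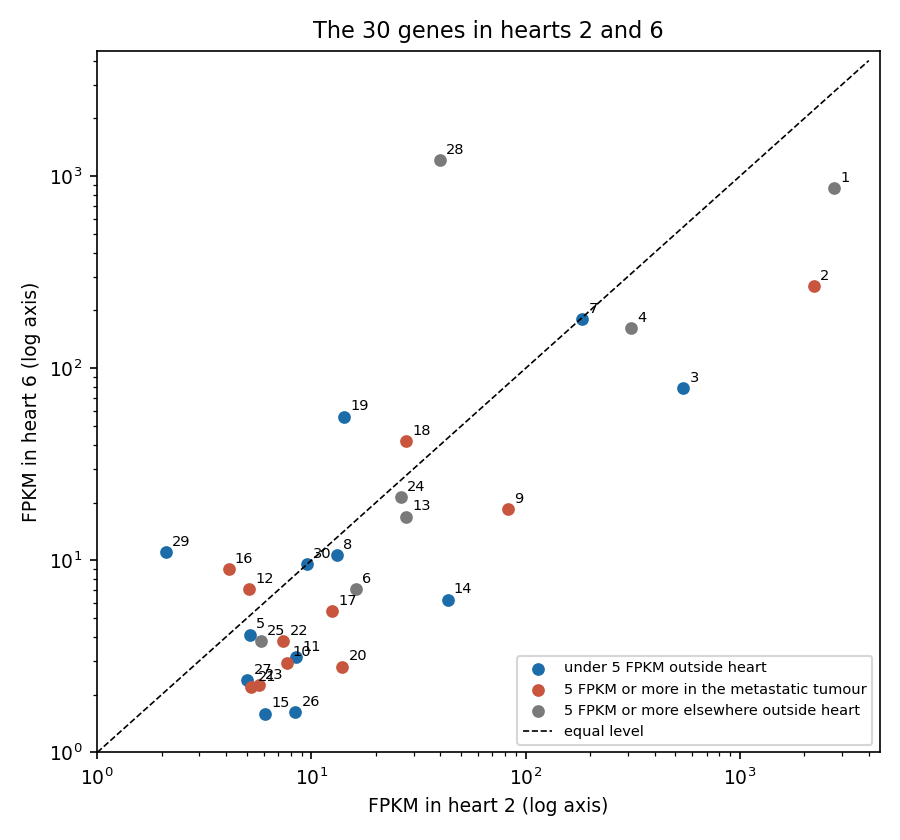
FPKM of the 30 members in heart 2 (horizontal, log axis) and heart 6 (vertical, log axis), 1 numbered point per gene, coloured by where else the gene reached 5 FPKM, with a dashed line at equal level. Most points lie below the line, member 28 lies far above it at 39.7 and 1214 FPKM, and members 7 and 30 lie on it.

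The border of the group was gradual. Member 30 had a correlation of 0.863 with member 1, and the next gene, the 31st, had 0.856, followed by values down to 0.832 for the 35th. Member 30 stood at 9.52 FPKM in heart 2 and 9.54 in heart 6, with at most 1.64 in the other hearts. The 31st gene stood at 11.5 and 5.98 FPKM, with at most 2.15 in the other hearts. For these 5 genes just outside, hearts 2 and 6 were again the 2 highest hearts.

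Which genes belong to the group depended most on heart 2, and on hearts 2 and 6 together. When heart 2 was left out of the rule, 19 of the 30 members still met the limits on level and 18 were chosen again. Without heart 6, 26 were chosen again, as many as without heart 7. Without both, 0 of the 30 reached 5 FPKM in any remaining heart, so none could be chosen. Leaving out any other single heart kept 26 to 30 members. With Spearman correlation, which uses the order of the tumours and not the size of their values, 16 members were kept.

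Outside the heart, the members did not behave as a single block. The 18 members that reached 5 FPKM in some tumour outside the heart, and the 12 that did not, are described in 3 sets, which were formed after their values were seen and carry no test. In the first set, 12 members (3, 5, 7, 8, 11, 14, 15, 19, 26, 27, 29 and 30) stayed under 5 FPKM in all 40 tumours outside the heart. In the second, 11 members (2, 9, 10, 12, 16, 17, 18, 20, 21, 22 and 23) reached 5 FPKM in the metastatic tumour. The remaining 7 (1, 4, 6, 13, 24, 25 and 28) reached it in some spleen, liver, cutaneous or abdominal tumour but not in the metastatic tumour.

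The 12 genes of the first set were, by their definition, low outside the heart, though not equally so. Member 27 reached 1 FPKM in 22 tumours and stood at 4.87 FPKM in the cutaneous tumour, against 5.01 in heart 2. The median FPKM of the set was 8.98 in heart 2 and 7.89 in heart 6, against 0.088 in spleen 27, 0 in spleen 17 and 0.068 in the metastatic tumour. Of these genes, 6 stayed under 1 FPKM in all 49 tumours other than hearts 2 and 6, namely members 3, 5, 8, 11, 14 and 15. Member 14 had 43.2 FPKM in heart 2 and 6.25 in heart 6, while no other heart exceeded 0.0454 FPKM and no spleen tumour exceeded 0.0863 FPKM. Member 19 was higher in heart 6, at 56 FPKM against 14.3 in heart 2, and reached 0.248 FPKM in spleen and 1.41 FPKM in liver 2. Over the whole table, 21 genes with 5 FPKM or more had hearts 2 and 6 as their 2 highest tumours of all 51, and 14 of these were members. Of the other 7, 3 had a spleen median of 1 FPKM or more and so could not be chosen.

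Some low values could be read as numbers of fragments. For 14 of the 30 members, FPKM multiplied by relative depth gave whole multiples of the smallest value in at least 90% of the values up to 10 multiples (within 0.06). A multiple of 1 is then taken as 1 fragment. On this scale member 3 had 9 fragments at most in another heart and 8 at most in a spleen tumour. Member 14 had at most 2 in any spleen tumour and 1 in any other heart, and member 8 at most 4 and 6. Others had more, such as member 11 with 12 in spleen 26 and 24.1 in the metastatic abdominal mass, and member 30 with 53.9 in heart 1 and 35.1 in spleen 1. If the smallest value was itself more than 1 fragment, all these numbers rise in proportion.

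The 11 genes of the second set were high in a further group of tumours. Their median FPKM was 38 in spleen 27, 20.4 in the metastatic tumour and 5.55 in spleen 17, against 7.66 in heart 2 and 5.43 in heart 6. Of the 11 genes, 8 were higher in the metastatic tumour than in both hearts. A level of 5 FPKM in the metastatic tumour defined the set, so this count is a description. Spleen 27 exceeded spleen 17 for 10 of the 11, and the metastatic tumour exceeded spleen 27 for 9 of the 11. These counts are also descriptions, given without a share over all genes, and the definition of the set favours the count of 9. Spleen 27 came from a spayed female Golden Retriever of 13.6 years, spleen 17 from a neutered male Keeshond of 9.6 years, and the metastatic tumour from a spayed female Golden Retriever. These tumours had relative depths of 0.895, 0.959 and 0.746. Their summed FPKM was 1057712, 743192 and 938627, against 491962 in heart 2 and 500423 in heart 6.

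Member 18 was the extreme case. It was the 25th highest gene of the metastatic tumour, at 3845 FPKM, and spleens 27 and 17 had 659.2 and 465.2 FPKM. Hearts 2 and 6 had 27.6 and 41.9 FPKM of it, spleen 8 had 17.6, liver 2 had 8.16, and the median over spleen tumours was 0.123. Its level in the metastatic tumour was 91.7-fold that in heart 6, its highest heart.

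Members 16 and 17 were also highest in the metastatic tumour, followed by spleen 27. For member 16 the metastatic tumour had 551.1 FPKM and spleens 27 and 17 had 39.8 and 26.9, against 4.11 and 9.03 in hearts 2 and 6. Member 17 stood at 241.1 FPKM in the metastatic tumour and 38 in spleen 27, but at 3.61 in spleen 17, below hearts 2 and 6 at 12.5 and 5.43. For both genes the 2 hearts therefore lay well below the metastatic tumour, by 61-fold and 19.3-fold against the higher heart.

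Member 2 went the other way. Heart 2, at 2214 FPKM, was 6.21-fold above the metastatic tumour at 356.3 FPKM, while heart 6 at 266.7 FPKM was close to spleen 27 at 270.7 FPKM. Spleen 17 had 163.3 FPKM and the next spleen tumour 3.39 FPKM. Member 9 was highest in the metastatic tumour at 198 FPKM, then in spleen 27 at 134.6, heart 2 at 82.5, spleen 17 at 53.9 and heart 6 at 18.5 FPKM. Spleen 8 followed with 10.2 FPKM, and the lowest spleen value was 0.13 FPKM.

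The other 6 genes of this set were lower. Member 12 was highest in spleen 27, at 41.3 FPKM, with 14.5 in spleen 17, 14.4 in the metastatic tumour, and 5.14 and 7.07 in hearts 2 and 6. Member 10 had similar values in the metastatic tumour, spleen 17 and spleen 27, at 5.55, 5.55 and 4.71 FPKM, and at most 0.161 in any other spleen tumour. Members 21 and 23 stood at 20.4 and 9.37 FPKM in the metastatic tumour and at 5.24 and 5.7 in heart 2. Members 20 and 22 were also high in other tumours. Member 20 had 13.3 FPKM in spleen 27 and 12.4 in the metastatic tumour. It also had 11.5 and 9.18 in spleens 26 and 16, and 0.769 in spleen 17. Member 22 had its highest value, 18.8 FPKM, in spleen 20, and nearly as much, 18.6, in the metastatic tumour. Spleen 9 had 12.4 FPKM of it, liver 2 had 10.1 and spleen 27 had 4.6.

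**Figure D3:**
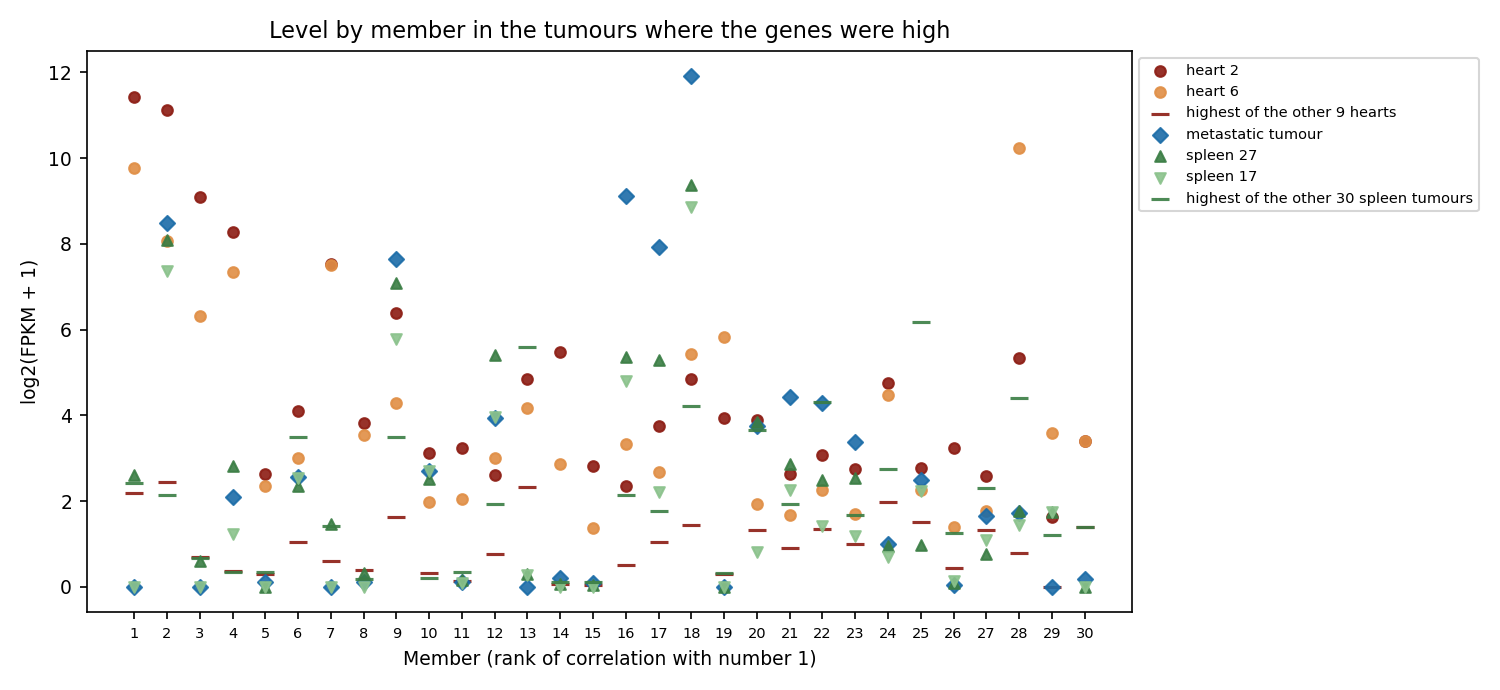
Level, as log2(FPKM + 1), of each member (horizontal, numbered 1 to 30) in hearts 2 and 6, the metastatic tumour and spleens 17 and 27, with dashes for the highest of the other 9 hearts and of the other 30 spleen tumours. Members 16, 17 and 18 stand highest in the metastatic tumour, while members 1, 3, 7 and 14 are at or near 0 there.

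The 7 genes of the third set reached 5 FPKM in varied tumours. Member 1 did so in spleen 27 alone, at 5.13 FPKM, and member 4 also in spleen 27 alone, at 6.09 FPKM. Member 6 did so in spleen 9, at 10.4 FPKM. Member 13 was higher in spleen 21, at 46.9 FPKM, than in hearts 2 and 6, at 27.6 and 16.9 FPKM, and had 14.9 FPKM in spleen 20. Member 24 reached 5.71 and 5.46 FPKM in spleens 19 and 29, against 26.1 and 21.3 FPKM in hearts 2 and 6. Member 25 was higher outside the heart, with 71.8, 64.8 and 52.6 FPKM in spleens 8, 15 and 26 and 33.9 FPKM in the cutaneous tumour, against 5.79 and 3.81 in hearts 2 and 6. Member 28 had 20.3 FPKM in spleen 15 and 19.8 in liver 2.

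The liver tumours differed from each other. The median FPKM of the members was 0, 0.693 and 0 in livers 1, 2 and 3, and 0, 14 and 2 members reached 1 FPKM there. Members 28, 22 and 18 reached 5 FPKM in liver 2, and no member did in livers 1 and 3. Number 25 was the highest member in the metastatic abdominal mass, at 4.29 FPKM, and in the tumour of undetermined origin, at 4.05 FPKM. The level of spleen tumours was used to choose the members, so liver was not tested against spleen.

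Over the members, the metastatic tumour correlated with spleens 27 and 17 about as it did over all genes, and with hearts 2 and 6 far less. The Pearson correlation of log2(FPKM + 1) over the 30 genes was 0.93 between the metastatic tumour and spleen 27, 0.9 between the metastatic tumour and spleen 17, and 0.8 between hearts 2 and 6. It was 0.04 between heart 2 and the metastatic tumour and 0.01 between heart 6 and the metastatic tumour. Over all 16382 genes these last 2 pairs had 0.85 and 0.84, hearts 2 and 6 had 0.97, and the metastatic tumour had 0.93 with spleen 27 and 0.92 with spleen 17. These are descriptions across genes, which are not independent replicates, and the choice of members by hearts 2 and 6 limits the range of those 2 tumours.

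The spleen tumours entered the choice of members only through a median, so the way members moved together within spleen was not used. The median pairwise correlation of log2(FPKM + 1) over 32 spleen tumours was 0.136 over the 435 pairs of members, against -0.002 over all pairs of the 12645 genes with 1 FPKM or more in at least 3 spleen tumours. A correlation of 0.5 or more was found in 18.2% of member pairs and in 4.32% of all pairs. Without spleen 27 the median of the members was 0.015, and without spleens 17 and 27 it was -0.004 with 5.29% of pairs at 0.5 or more. The heart values, which chose the members, gave a median of 0.908. Members are sparse in spleen, since 14 of the 30 were at 0 in at least 16 spleen tumours, and 11 of the 30 did not reach 1 FPKM in 3 spleen tumours, unlike the genes they are set beside.

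Within spleen, correlation was concentrated among the genes high in the metastatic tumour. These 11 genes had a median pairwise correlation of 0.712, and 0.187 without spleens 17 and 27. The 12 genes of the first set had 0.018 and the 7 of the third set 0.003, and no test of a difference between sets was run. By its definition the first set was under 5 FPKM in every spleen tumour, spleens 17 and 27 included, which limits its range there. The contrast between the sets is therefore a description. Members 16 and 18 correlated at 0.981 and members 2 and 18 at 0.924. Member 4 also followed these genes, with 0.918 against member 2, though its highest spleen value was 6.09 FPKM and the second, in spleen 17, was 1.36 FPKM. Member 1 was correlated at 0.94 with member 3, 0.72 with member 14 and 0.649 with member 4. Member 14 had at most 0.0863 FPKM, or 2 fragments, in any spleen tumour, so its correlations there rest on very few fragments. The correlation of member 1 with the 29 other members had a median of 0.29, and of -0.047 without spleen 27.

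**Figure D4:**
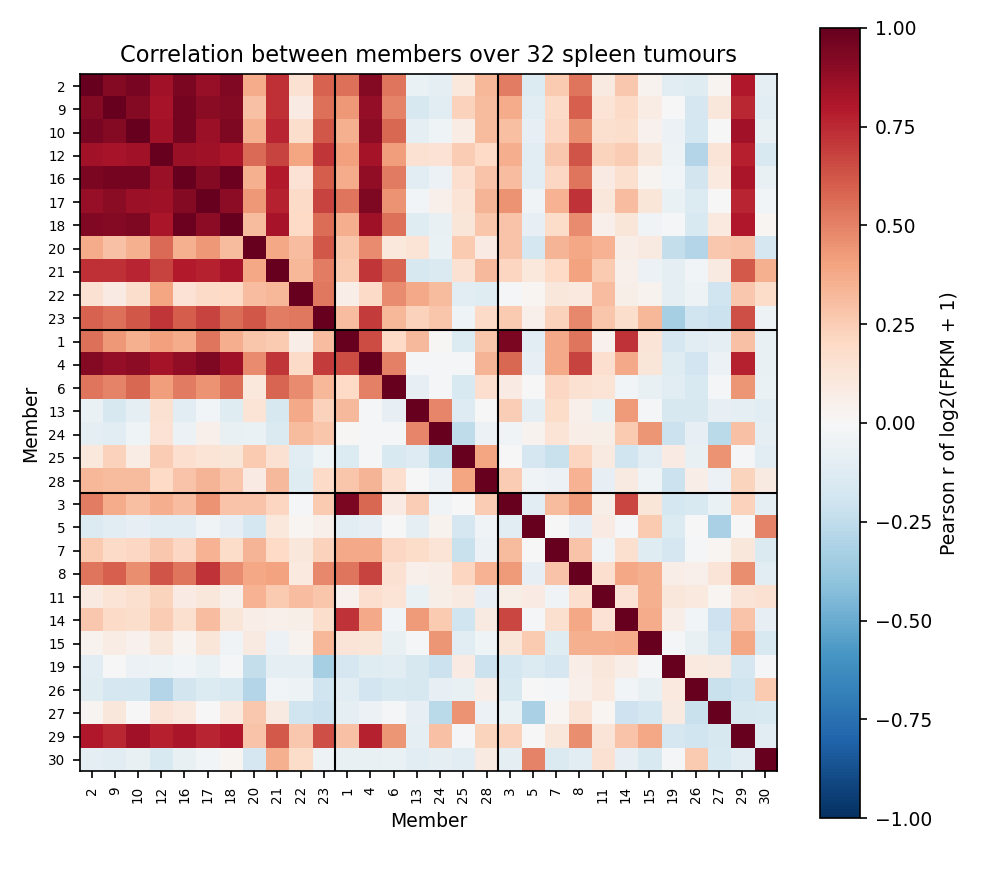
Pearson correlation of log2(FPKM + 1) between members over 32 spleen tumours, ordered by set and divided by black lines into the 11 genes high in the metastatic tumour, the 7 high elsewhere and the 12 under 5 FPKM outside the heart. Most of the 11 genes form a red block, joined by members 4 and 29, and the median over the 11 is 0.712. Members 20 and 22 correlate less with the block, for example at 0.317 and 0.2 with member 18. Members 1, 3 and 14 correlate with each other at 0.67 to 0.94, and members 1 and 3 also correlate with member 4, at 0.649 and 0.577.

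A low level of member 1 was found in 6 other tumours, and in 5 of them members 2, 3 and 4 were also low. Of the 49 tumours other than hearts 2 and 6, 6 had 1 FPKM or more of member 1, 5 had up to 0.318 FPKM, and 38 were at 0. The 6 were hearts 3, 5 and 7 and spleens 5, 21 and 27, with 2.91, 3.55, 2.81, 3.72, 4.32 and 5.13 FPKM. Nothing lay between 0.318 and 2.81 FPKM.

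In hearts 3, 5 and 7 and spleens 5 and 21, member 1 was at 0.102% to 0.157% of its level in heart 2. Member 2 was at 0.0903% to 0.2% of its own level in heart 2, member 3 at 0.0503% to 0.116%, and member 4 at 0.0314% to 0.0958%. The median of these 20 percentages was 0.104%. Set against heart 6 the same values were spread from 0.0602% for member 4 to 1.66% for member 2. These tumours were picked by the level of member 1. Member 2 also stood at 2.45 FPKM in liver 2, 1.93 in spleen 8 and 1.74 in spleen 11, where member 1 was at 0. In heart 3 the 4 genes were at 2.91, 2.49, 0.576 and 0.296 FPKM, which are 0.106%, 0.112%, 0.106% and 0.0958% of heart 2. Member 3 was at 4 to 9 fragments in the hearts and the counting error of such values is large. Heart 5 alone ran from 0.0314% for member 4, a value of 1 fragment, to 0.2% for member 2. Spleen 27 had 0.187% for member 1 and 0.0957% for member 3, but 12.2% for member 2 and 1.97% for member 4. Carry-over from heart 2 into these libraries was not tested. Spleens 5, 21 and 27 were also the 3 highest spleen tumours for members 1 and 3, which correlated at 0.94 within spleen, so that correlation rests on the same low values.

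**Figure D5:**
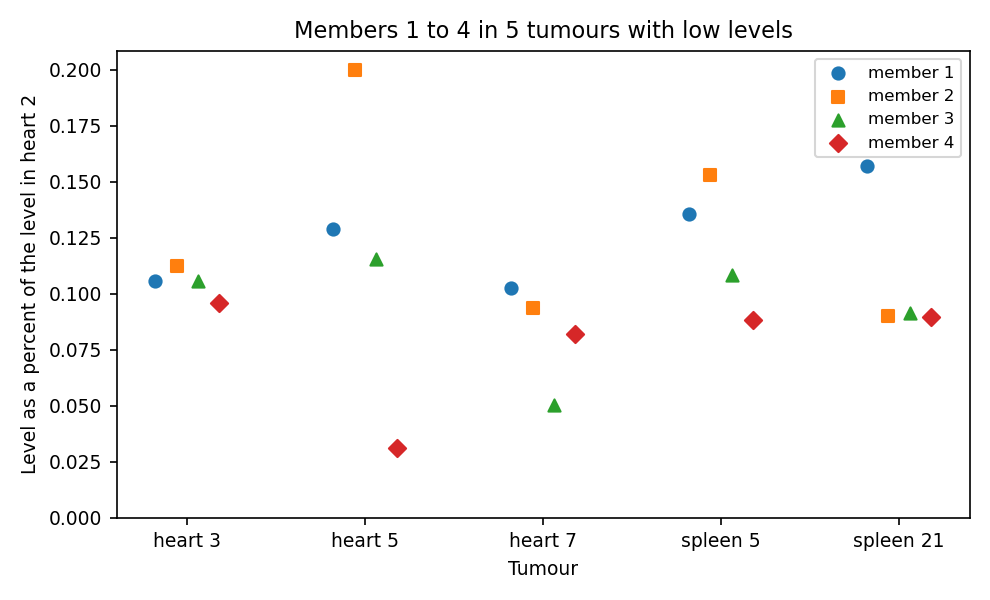
Level of members 1 to 4 (symbols) in 5 tumours picked by the level of member 1 (horizontal), as a percent of the level of the same gene in heart 2 (vertical, from 0). Most of the 20 points lie near 0.1%, from 0.0314% for member 4 in heart 5 (1 fragment) to 0.2% for member 2 in heart 5.

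Hearts 2 and 6 were the only heart tumours from intact females, so the labels were searched for the members in other intact females. The 5 spleen tumours from intact females (spleens 6, 7, 13, 26 and 30) had a median FPKM of the members between 0 and 0.056, member 1 was at 0 in all 5, and 2 members reached 5 FPKM in any of them. Liver 1, also from an intact female, had no member at 1 FPKM, and the tumour of undetermined histogenic origin had 4. Sex with neuter status and any other trait of hearts 2 and 6 cannot be told apart within heart.

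Sex, neuter status, breed class and age were tested within spleen, where the contrast was independent of the choice of members. A linear model (limma, Benjamini-Hochberg adjustment over all genes) was fitted to the 12645 genes, and 19 of the 30 members passed the filter of 1 FPKM in at least 3 spleen tumours. Between 16 male and 16 female spleen tumours limma called 0 of 12645 genes at an adjusted p under 0.05 (0%) and 0 members. Without adjustment, 1029 genes (8.14%) had p under 0.05, 4 members among them (13, 20, 23 and 24), each with a lower mean in males. Member 13 differed most, with a male minus female difference of -0.97 ± 0.4 (SE) on the log2 scale (limma adjusted p = 0.602). The median difference was -0.046 over the 19 members and -0.01 over all genes. The sign of the members' median was not stable: it was 0.008 with quantile normalization, 0.016 with array weights, 0.038 with the covariates together, 0.068 without the samples with CHAD titles, 0.254 over the 4 members with a mean of at least 5 FPKM, and 0.205 over the 13 members that passed the filter without spleens 17 and 27.

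Neutered against intact dogs, with sex as a covariate, gave 0 calls of 12645 (0%) by limma, with 618 genes (4.89%) and 0 members at an unadjusted p under 0.05. The median neutered minus intact difference was 0.434 over the 19 members and 0.008 over all genes. Of the 19, 17 were higher in neutered dogs, and the share over all genes was not counted. Some members correlated strongly with each other in spleen, so they are not separate observations. Spleens 17 and 27 are both from neutered dogs. Without them 13 members passed the filter, of which 10 were higher in neutered dogs, and their median difference was 0.099. With array weights 14 of the 19 were higher in neutered dogs, and their median difference was 0.153. Golden Retrievers (n = 20) against other breeds (n = 12) gave 0 calls (0%) by limma, with 260 genes (2.06%) and 0 members at an unadjusted p under 0.05.

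The slope on age gave 0 calls (0%) by limma, with 1391 genes (11%) and 3 members at an unadjusted p under 0.05. Member 25 fell by 0.437 ± 0.125 (SE) per year on the log2 scale at a limma adjusted p of 0.324, so it did not pass. Member 28 had a slope of -0.199 ± 0.064 (SE, limma adjusted p = 0.339), and member 22 one of 0.206 ± 0.084 (SE, limma adjusted p = 0.394). The median slope was 0.062 over the 19 members and -0.005 over 13 without spleens 17 and 27. A comparison of the 5 intact females with the other 27 spleen tumours, added after the data were seen, gave 0 calls (0%) by limma, with 87 genes (0.688%) and 0 members at an unadjusted p under 0.05. Its median difference was -0.251 over the 19 members and -0.008 over all genes. For the members it was -0.104 with array weights and -0.093 over 13 without spleens 17 and 27.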

How the data were processed

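RNA was sequenced from 51 tumours. The authors deposited 1 table of FPKM values with 1 column per tumour, and the tools named per the submitters' processing notes are FastQC 0.11.2, TopHat 1.4.1 and Cuffdiff, with genome build CanFam3.1. For the annotation, strand setting, filters and scaling between libraries, details were not given in the sources used here. Both members and lists were chosen with earlier results of these data known. Relative depth was solved from the steps of 2842 low genes (window 0.04 on the log2 scale). The largest residual of a pair of libraries was 0.0055, and a median pair of libraries had 17.5% of those genes on its main step. Absolute depth is unknown, so no counting interval was computed.

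Values were analysed as log2(FPKM + 1), which understates differences of low genes. limma 3.58.1 in R 4.3.3 (empirical Bayes with a mean trend, two-sided) was fitted to the 32 spleen tumours and checked on simulated data. Whether every sample is from a different dog is not stated in the labels, and p-values then measure only the spread between these samples. A gene entered a fit with 1 FPKM or more in at least 3 tumours, and p-values were adjusted by Benjamini-Hochberg over all genes fitted. Sex was a covariate for neuter status only. Other pseudocounts, filters, scalings, weights, covariates and left-out tumours were tried. The members described are numbers 1 to 10, the 5 with the highest single values, and those with 5 FPKM or more outside the heart. Identifiers are printed for member 1 and for the member with the highest heart median among the others. Marker lists needed symbols and were not scored.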

Additional observations from a re-analysis of the deposited data

Results flagged for a closer look

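The metastatic tumour is the only one under its label and entered no test. It held 6 members above every spleen, heart and liver tumour. How many of all genes were highest in this tumour was not counted, so the 6 are a description. Member 18 stood at 3845 FPKM there, against 659.2 FPKM in spleen 27, the highest of the 46. Member 16 stood at 551.1 FPKM against 39.8, and member 17 at 241.1 FPKM against 38, both also with spleen 27 as the next. Member 9 had 198 FPKM against 134.6 in spleen 27, member 21 had 20.4 FPKM against 6.29 in spleen 27, and member 23 had 9.37 FPKM against 5.7 in heart 2. There is 1 such tumour, so these values have no replicate.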

How the results depend on the processing

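Membership was 30 by definition and 16 with Spearman correlation, 17 with a heart maximum of 10 FPKM (only 17 members could then be chosen), 18 to 30 when 1 heart was left out (18 without heart 2), and 0 without hearts 2 and 6, a setting added after seeing the data. The median correlation of members in spleen, 0.136, lay between 0.015 (without spleen 27) and 0.168 when 1 spleen tumour was left out, and was -0.004 without spleens 17 and 27, also added after seeing the data. In the tests within spleen, 0 members were called in all 55 other settings. Gene counts were 0 in all of these except for breed class with array weights, where 3 genes were called, and the cause was not tested. With a pseudocount of 0.1 the mean log2 level of the members was 1.32 in spleen 27 and 1.29 in the metastatic tumour, against 2.39 and 2.66, since many members are near 0 there. The other 10 settings of a level moved it by less than the SD between tumours. That SD was taken over the 11 hearts, the 32 spleen tumours or, for the metastatic tumour, all 51. It includes the outlying tumour itself, so the limit is wide and staying within it shows little. No paired analysis was possible because the labels do not state which tumours, if any, came from the same dog. Only relative depth is known, so a value of 0 has no stated limit.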
